A study of Homo sapiens with 18 samples.

Results

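The ZBTB genes encode transcription factors that pair an N-terminal BTB domain with C-terminal zinc fingers. They were examined in A549 and BEAS-2B cells after wood smoke. The members were taken by name, as protein-coding genes whose symbol is ZBTB followed by a number and at most 1 letter. This gave 41 of the 62649 gene identifiers in the count files, spread over 15 chromosomes, with 9 on chromosome 1. The family was chosen by name and by measured values: it was selected on the fold changes of ZBTB20, which moved differently in the 2 lines, so ZBTB20 is described without a test. Counts of members that passed a test are over the other 40.

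A549 is a lung carcinoma line labelled alveolar epithelial, and BEAS-2B is an immortalised line labelled bronchial epithelial. Each line is a single established culture and stands for no donor or tissue beyond it. All samples were wild type by their labels. Cells on porous inserts were exposed at the air-liquid interface for 4 h to complete wood smoke, to filtered wood smoke or to clean air as the control, at the same flow and humidity. They were seeded on 24 mm inserts 24 h before exposure, 400000 cells for A549 and 500000 for BEAS-2B. The number seeded and the line cannot be told apart. Every one of the 6 groups holds 3 libraries. The series title asks about carbonyl compounds in the gas phase of the smoke. The labels leave unsaid whether the libraries of a group are separate exposures. The p-values therefore rest on a spread among libraries that may be technical.

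In this family the BTB domain joins 2 copies of the protein and docks corepressor complexes such as NCOR, BCOR and the histone deacetylases, while the zinc fingers read the DNA. Most studied members repress transcription, and several are best known from blood cell development, the p53 and MYC pathways or the reading of methylated DNA. In airway epithelium few of them have a well defined role.

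Promoter sequence is shown for 4 members to set ZBTB20 beside both directions of change: ZBTB38 and ZBTB44, which were lower in all 4 comparisons with clean air, and ZBTB48, the member that rose with filtered smoke in A549 cells. Each is the 250 bases before a RefSeq start on GRCh38.p14, read 5′ to 3′ on the strand of the gene. The windows are chr3:115147289-115147538 (minus strand) for ZBTB20, chr3:141368254-141368503 (plus) for ZBTB38, chr11:130314918-130315167 (minus) for ZBTB44 and chr1:6579744-6579993 (plus) for ZBTB48. Capitals mark the motifs described next.
ZBTB20: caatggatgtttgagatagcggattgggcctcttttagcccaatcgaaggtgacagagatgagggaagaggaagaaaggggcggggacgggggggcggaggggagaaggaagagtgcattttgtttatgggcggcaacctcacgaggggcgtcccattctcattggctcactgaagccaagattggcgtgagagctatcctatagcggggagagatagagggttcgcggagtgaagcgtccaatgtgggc
ZBTB38: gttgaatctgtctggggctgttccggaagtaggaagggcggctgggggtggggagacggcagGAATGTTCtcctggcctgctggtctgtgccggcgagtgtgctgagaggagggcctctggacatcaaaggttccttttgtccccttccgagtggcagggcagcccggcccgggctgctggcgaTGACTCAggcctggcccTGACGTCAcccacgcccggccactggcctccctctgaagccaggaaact
ZBTB44: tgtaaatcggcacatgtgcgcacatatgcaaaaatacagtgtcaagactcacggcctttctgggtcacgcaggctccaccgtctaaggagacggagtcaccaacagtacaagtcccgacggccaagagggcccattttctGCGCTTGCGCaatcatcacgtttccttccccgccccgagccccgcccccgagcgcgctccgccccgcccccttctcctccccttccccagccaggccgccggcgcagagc
ZBTB48: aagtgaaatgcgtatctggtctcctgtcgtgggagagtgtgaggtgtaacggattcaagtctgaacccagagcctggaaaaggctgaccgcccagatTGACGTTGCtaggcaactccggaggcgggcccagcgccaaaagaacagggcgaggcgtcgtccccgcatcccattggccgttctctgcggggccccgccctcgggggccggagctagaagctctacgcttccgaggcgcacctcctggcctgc

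The ZBTB38 window, at 1 of its 10 RefSeq starts and inside the gene, was chosen for its motifs. It holds a cAMP response element (TGACGTCA), an AP-1 site (TGANTCA) and a pair of heat shock half-sites (GAANNTTC) that do not overlap. Searched on both strands, these letters were in 1.65%, 6.57% and 5.78% of 35116 promoter windows of the same length. The ZBTB44 window holds an NRF1 site (5.07% of all windows) and the ZBTB48 window holds the core of an antioxidant response element (TGACNNNGC, 10.9%). Both windows were also chosen for holding that motif, so its presence is no result. None of these 5 motifs is in the ZBTB20 window shown, at the outermost of its 8 RefSeq starts, while windows at its other starts hold the AP-1, heat shock and antioxidant motifs. It was chosen by position and not by motif, so this absence cannot be set against the other windows. The ZBTB20 window shown has 56% G and C and 13 CpG, against 65.2% and 12 for ZBTB38, 63.2% and 22 for ZBTB44 and 63.2% and 20 for ZBTB48. RefSeq gave windows for 35 of the 41 members, 68 in all, with a median of 62.8% G and C and 16.5 CpG against 58% and 11 over all windows. The cAMP response element was in 2 of the 68, at ZBTB11 and ZBTB38. The motifs and the windows were chosen with the expression values known, and the counts do not say which start was used in these cells.

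Counts assigned to genes ranged from 14438397 to 21432089 per A549 library and from 28532235 to 55032499 per BEAS-2B library. The epithelial markers KRT8, KRT18, KRT19, EPCAM and CDH1 all reached 1 CPM (counts scaled to a common library total, with TMM factors over the 18 libraries) in both lines. All 4 basal markers did so in BEAS-2B cells. Of 5 alveolar type II markers 2 did so in A549 cells. SFTPA1 had no counts in either line, and SFTPC had a clean-air mean of 0.0774 CPM in A549 and 0.122 CPM in BEAS-2B cells. In BEAS-2B cells control 1 and complete 3 stood apart. Reads that map to several places were 31.7% in complete 3, where that group began at 10.2% and the controls lay between 7.69% and 9.08%. Control 1 was close to the other controls in this share, at 9.08%, but had a TMM factor of 1.02 beside their 1.20 and 1.25. Filtered 3, at 19.2% beside 10.8% and 11.7% in its group, was not among the libraries left out together below. Sums of marker lists moved with exposure. Of 4 fibroblast markers 2 reached 1 CPM in each line. Their sum ranged from 498 to 924 CPM over the BEAS-2B controls, 228 to 455 with complete and 353 to 494 with filtered smoke. In A549 cells it ranged from 25.5 to 42.7 CPM over the controls and was at most 22.3 in exposed libraries, with COL1A1 at a mean of 29.7, 16.3 and 9.81 CPM and LUM at 0.992, 1.55 and 1.63 for clean air, complete and filtered smoke. In BEAS-2B cells the basal sum ranged from 532 to 1024 CPM over the controls, 854 to 2253 with complete and 1273 to 2499 with filtered smoke, and the secretory sum from 1.67 to 2.68 over the controls and at most 0.214 in exposed libraries. The basal list did not move as a whole. KRT17 went from a mean of 585 CPM with clean air to 1379 with complete and 1580 with filtered smoke, and KRT14 from 22.4 to 40.3 and 43.1. KRT5 stood at 111, 113 and 132 CPM, and TP63 fell from 9.22 to 3.25 and 2.81. The part of these shifts and of the multimapping share in the results was not tested. In these bulk libraries fewer cells of a kind and less RNA per cell cannot be told apart.

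ZBTB20, a developmental repressor known for silencing alpha-fetoprotein in liver (ENSG00000181722, GRCh38 chromosome 3, 114314501 to 115147271, minus strand), spans 833 kb and was the gene whose values entered the choice of members. In A549 cells it stood at 18.3, 18.1 and 25.3 CPM with clean air, 3.16, 2.66 and 6.61 with complete smoke and 2.52, 2.55 and 4.87 with filtered smoke. Both exposed groups lay wholly below the controls. The log2 fold changes were -2.30 ± 0.37 and -2.62 ± 0.38 (SE, n = 3 against 3). In BEAS-2B cells it was low, at 0.315, 0.616 and 0.620 CPM with clean air, from 10, 23 and 22 counts. Complete smoke gave 0.427, 0.428 and 2.09 CPM (14, 12 and 57 counts) and filtered smoke 0.327, 0.375 and 0.417 (8, 15 and 15 counts). Each exposed BEAS-2B group overlapped the controls, with a single high value in complete 3, the library with the high multimapping share. The lowest complete library, at 0.427 CPM, lay just above the highest filtered one, at 0.417 CPM. The log2 fold changes were 0.96 ± 0.63 and -0.46 ± 0.66. Without complete 3 the first became -0.29, and it was -0.48 without control 1 and complete 3, so the positive value with complete smoke rested on that library. The difference between the lines in the response to complete smoke was 3.20, and became 2.03 without complete 3 and 1.78 without both libraries, and that to filtered smoke was 2.16.

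**Figure D1:**
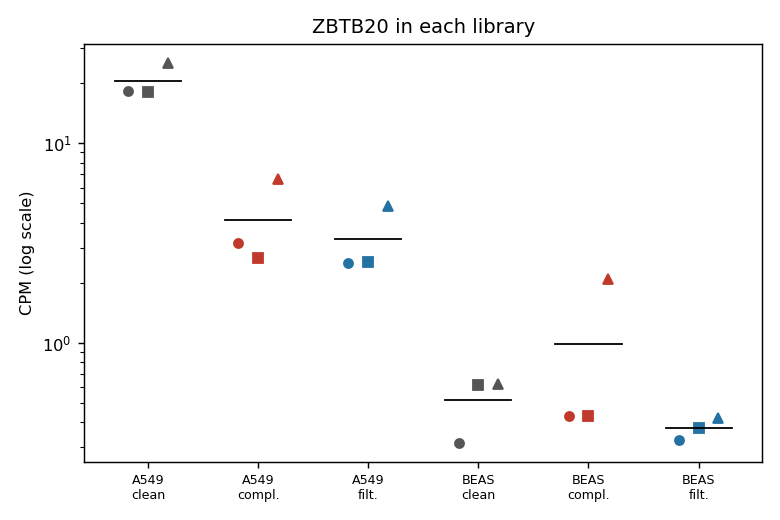
ZBTB20 in each of the 18 libraries, as CPM on a log scale, with clean air in grey, complete smoke in red and filtered smoke in blue. Circles, squares and triangles are libraries 1, 2 and 3 and the lines are group means; all 6 exposed A549 libraries lie below 7 CPM and all BEAS-2B libraries below 2.1 CPM.

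The clean-air level of ZBTB20 was 38.7 times higher in A549 cells (1315 against 55 counts, 95% counting interval 29.5 to 51.6). Its 31872 exonic bases overlap other annotated genes on the same strand, ENSG00000259976 and MIR568, by 15309 bases summed over both. ENSG00000259976 had no counts in any library. The counts of ZBTB20 and its level per kb are therefore uncertain. Of its 5 annotated antisense genes none had more than 3 counts in a library.

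With clean air, 33 of the 41 members had a mean of at least 1 CPM in A549 cells and 34 in BEAS-2B cells. Per kilobase of exon the highest was ZBTB38, a reader of methylated DNA, at 15.5 ± 0.754 CPM per kb in A549 cells and 18.2 ± 8.80 in BEAS-2B cells (SD, n = 3). In A549 cells it was followed by ZBTB7B at 13.4 ± 1.17 and ZBTB1 at 13.2 ± 0.724 CPM per kb, 2 regulators of lymphocyte development whose libraries overlapped, and then by ZBTB33 at 9.52 ± 0.443. In BEAS-2B cells ZBTB2, a repressor of the p53 pathway, followed at 9.18 ± 2.11 CPM per kb and ZBTB1 at 9.12 ± 2.94, and the libraries of all 3 overlapped. At the other end ZBTB22, ZBTB32 and ZBTB7C were too low to test in either line. ZBTB32, a lymphocyte gene, had at most 2 counts in any group.

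**Figure D2:**
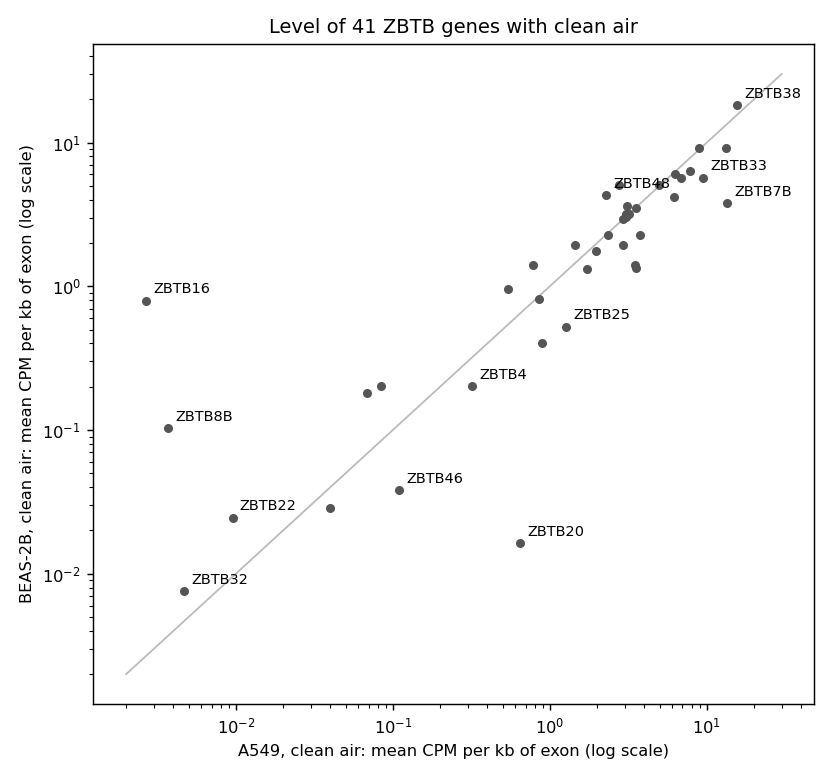
Mean clean-air level of the 41 ZBTB genes in A549 (x axis) and BEAS-2B cells (y axis), n = 3 each, as CPM per kb of exon on log scales, with the grey line marking equal levels. ZBTB38 is at the top in both lines, ZBTB16 and ZBTB8B lie far above the line and ZBTB20 far below it.

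Apart from ZBTB20, the clean-air levels of the 2 lines differed most in ZBTB16 and ZBTB8B. ZBTB16, also called PLZF and a regulator of myeloid and innate-like lymphoid cells (ENSG00000109906, chromosome 11, 114059593 to 114250676, plus strand), had 1 count over the 3 A549 controls and 538 over the BEAS-2B controls, a ratio of 333 in scaled counts (95% counting interval 59.4 to 13158). ZBTB8B had 3 against 137 counts, a ratio of 28.2 (9.46 to 139). Both entered the comparison through the line where they are high, as did ZBTB9 and ZBTB46, so these 4 are described without a test. ZBTB7B, which directs CD4 T cell fate, was lower in BEAS-2B cells by 1.82 ± 0.19 on the log2 scale (edgeR adjusted p = 3.66e-07). It measured 57.2, 62.9 and 52.8 CPM in the A549 controls and 16.0, 15.1 and 17.7 CPM in the BEAS-2B controls, which did not overlap. Of 36 members in the fit between the lines 6 were higher and 6 lower in BEAS-2B cells, or 33.3% of members, where 55.4% of all tested genes passed. The 4 members described without a test are among these 12, which leaves 8. Without A549 control 3 the 12 became 7 (47.6% of all genes). ZBTB9, whose counts are uncertain, stood at 0.441, 0.804 and 0.394 CPM in the BEAS-2B controls against 0.207, 0.312 and 0.102 in the A549 controls. ZBTB46, a dendritic cell factor, stood at 0.283, 0.214 and 0.197 against 0.621, 0.662 and 0.714 CPM, and with strand ignored its log2 difference moved to -0.51. ZBTB41 was lower in BEAS-2B cells by 1.40 ± 0.53 on the log2 scale (edgeR adjusted p = 0.0338). This call was lost without A549 control 2 (adjusted p = 0.0661), A549 control 3 (0.102) or BEAS-2B control 1 (0.123), without BEAS-2B control 1 and complete 3 together (0.0531) and with library size alone (0.0614). The lines and any batch that goes with them cannot be told apart.

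Exposure lowered members far more often than it raised them. In A549 cells complete smoke lowered 8 of 33 tested members and raised none (24.2% of members, where 32.5% of all tested genes passed and 16.9% were lower), and filtered smoke lowered 18 and raised 1 (57.6% against 46.7%, with 23.5% lower). In BEAS-2B cells complete smoke lowered 19 of 37 (51.4% against 41%, with 19.5% lower) and filtered smoke 23 (62.2% against 48.6%, with 24.9% lower), and neither raised any (edgeR quasi-likelihood test over all genes, Benjamini-Hochberg adjusted p under 0.05). A member in each BEAS-2B count, ZBTB8B, passed the filter on low counts through the controls alone, which leaves 18 and 22. Lower in all 4 comparisons were ZBTB38, ZBTB40, ZBTB44, ZBTB7B and ZBTB8A. A further 9 were lower in 3 of them, and 24 of 33 members tested in both lines had a negative fold change in all 4. Only ZBTB17 and ZBTB48 had a positive one in all 4, and with libraries scaled by library size alone no tested member other than ZBTB20 was positive in BEAS-2B cells. The 2 comparisons of a line share their controls. Among all genes the fold change was negative in 49% and 49.8% (A549, complete and filtered) and 52.1% and 52.2% (BEAS-2B). How many of all genes were lower or negative in 3 or 4 comparisons together was not counted, so these member counts have no share beside them.

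**Figure D3:**
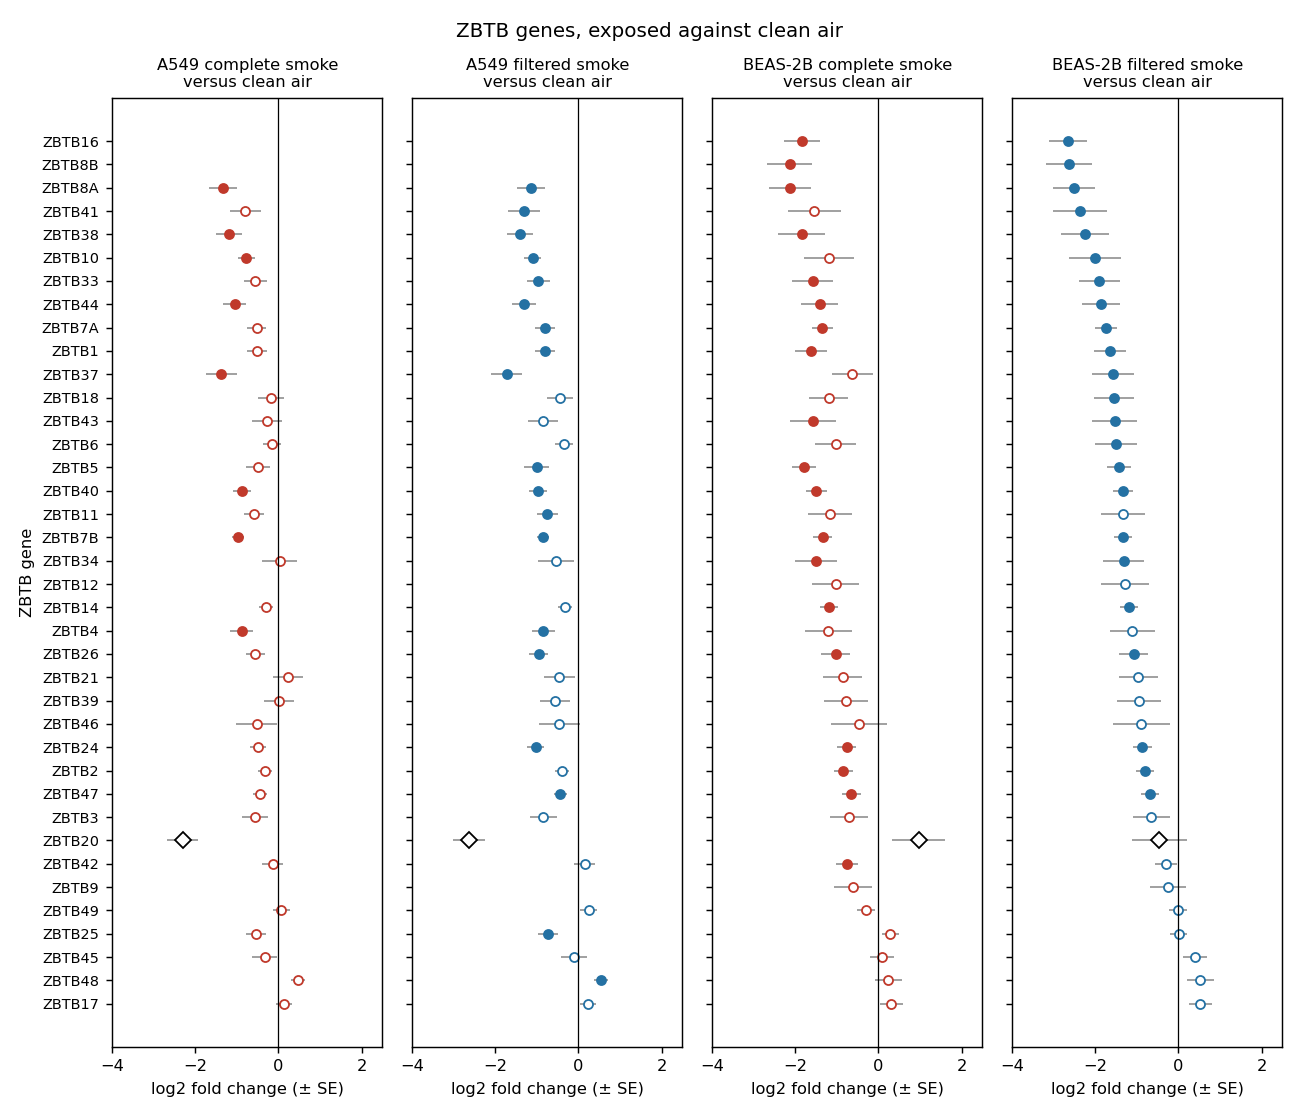
Log2 fold change against clean air (x axis, ± SE, n = 3 against 3) of the tested ZBTB genes, sorted by their value in BEAS-2B cells with filtered smoke. Filled circles passed an adjusted p of 0.05 in edgeR, open circles did not, and the diamond is ZBTB20, which was not tested. ZBTB8B passed the low-count filter in BEAS-2B cells through the controls alone; most points lie left of zero, down to -2.65 for ZBTB16.

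With complete smoke in A549 cells the share of members called was thus below that of all genes, and in the other 3 comparisons it was above it. The median log2 fold change of the tested members, in the order A549 complete, A549 filtered, BEAS-2B complete and BEAS-2B filtered, was -0.51, -0.81, -1.17 and -1.32, and that of all tested genes was 0.02, 0.01, -0.06 and -0.07. With library size alone the median of all genes moved to -0.10, -0.15, -0.75 and -0.74 and that of the members to -0.63, -0.96, -1.82 and -1.98. Under that scaling the share of higher genes among all calls was 34.7% and 37.9% in A549 cells, in place of 47.9% and 49.6%, and 18.3% in BEAS-2B cells with either smoke, in place of 52.5% and 48.7%. All 3 exposed libraries lay below all 3 controls for 19, 21, 19 and 25 members, where 27.6%, 30.2%, 24.7% and 30.6% of all genes did so.

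The counts moved with single libraries, and so did the share of all genes called. In A549 cells with complete smoke the 8 became 1 without complete 2, control 2 or control 3 (9.11%, 12% and 14.6% of all genes), 2 without complete 1 (12.7%), 4 without control 1 (13.2%), 18 without complete 3 (43.8%) and 16 without filtered 3 (44.9%). With filtered smoke the 19 became 8 without filtered 1, filtered 2 or control 3 (27%, 25.7% and 30.6%) and 10 without control 2 (30%). In BEAS-2B cells the 19 with complete smoke became 9 without complete 1, complete 2, control 2 or control 3 (21.5%, 22.5%, 17.9% and 17.4%). The 23 with filtered smoke became 11 without control 2 or control 3 (22.7% and 21.8%), 13 without filtered 2 (27%) and 14 without filtered 1 (28.3%). Without the libraries that stood apart, control 1 and complete 3, each BEAS-2B comparison gave 27 members lower and 2 higher of 36 tested (63.5% and 63.4% of all genes).

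Same-numbered libraries deviated together in A549 cells and, for filtered smoke, in BEAS-2B cells, and with that number as a block more members passed. In A549 cells with complete smoke the block gave 19 members (18 lower, 1 higher; 54.6% of all genes). The 11 gained were ZBTB1, ZBTB5, ZBTB7A, ZBTB11, ZBTB24, ZBTB25, ZBTB26, ZBTB33, ZBTB41 and ZBTB47, which were lower, and ZBTB48 (edgeR adjusted p from 0.00158 to 0.0247). For filtered smoke it gave 27 in A549 cells (61.7%), with ZBTB2, ZBTB3, ZBTB6, ZBTB18, ZBTB21, ZBTB34, ZBTB39 and ZBTB43 gained, all 8 lower (0.000872 to 0.0388). In BEAS-2B cells it gave 29 with filtered smoke (66.9%), and of the 6 gained ZBTB4, ZBTB11, ZBTB21 and ZBTB39 were lower and ZBTB17 and ZBTB48 higher (3.95e-05 to 0.0207). The block gave 28 for complete smoke in BEAS-2B cells (63.1%), where the numbers were not taken as pairs.

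Of the 3 methyl-CpG readers 2 were lower with complete and 3 with filtered smoke in A549 cells, and 2 with each in BEAS-2B cells. Beside these and the counts by role that follow, 16.9% and 23.5% of all tested genes were lower in A549 cells and 19.5% and 24.9% in BEAS-2B cells, and groups of 3 to 6 members are too small to be read against them. ZBTB38 (ENSG00000177311, chromosome 3, 141324213 to 141449792, plus strand), the most highly expressed member, measured 214, 216 and 234 CPM in A549 cells with clean air, 76.9, 77.4 and 135 with complete smoke and 60.0, 62.1 and 126 with filtered smoke. The BEAS-2B values were 115, 326 and 337, then 36.8, 56.5 and 113, then 27.2, 52.9 and 81.7 CPM. Every exposed library lay below every control of its line, and control 1 of BEAS-2B was close to the highest exposed one. The log2 fold changes were -1.19 ± 0.31, -1.42 ± 0.31, -1.85 ± 0.56 and -2.24 ± 0.57 (SE; edgeR adjusted p = 0.0195, 0.00671, 0.0281 and 0.0134). The call with complete smoke was lost without complete 1, complete 2 or any single control in A549 cells (adjusted p from 0.0534 to 0.0830) and without complete 1, complete 2, control 2 or control 3 in BEAS-2B cells (0.0814 to 0.0953). With no low-count filter both BEAS-2B calls were lost (0.0931 and 0.0504).

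ZBTB33, or Kaiso, which binds methylated CpG as well as an unmethylated motif (ENSG00000177485, chromosome X, 120250752 to 120258398, plus strand), followed the same order. It measured 48.3, 53 and 50.4 CPM in A549 cells with clean air, 26.9, 28.7 and 46.7 with complete and 19.3, 20.8 and 37.3 with filtered smoke. In BEAS-2B cells the values were 15.2, 36.8 and 39.0, then 5.37, 9.06 and 14.8, then 4.41, 8.24 and 11.4 CPM. The exposed libraries were again all below the controls. The fold change with complete smoke in A549 cells was -0.56 ± 0.28 and did not pass (edgeR adjusted p = 0.138), but it did with the library number as a block (-0.62, 0.00753), without complete 3 (-0.86, 0.0250), without filtered 3 (0.0372) and with no low-count filter (0.0383). The others were -0.96 ± 0.28, -1.58 ± 0.49 and -1.90 ± 0.50 (edgeR adjusted p = 0.0195, 0.0304 and 0.0149). The first of these was lost without filtered 1, filtered 2, control 2 or control 3 (0.0545 to 0.0785), the second without complete 1, complete 2, control 2 or control 3 (0.0868 to 0.0980) and the third without control 2 or control 3 (0.0512 and 0.0533). ZBTB4, a low-level member that also binds methylated DNA, was lower in A549 cells with both smokes (-0.88 ± 0.28 and -0.85 ± 0.28, edgeR adjusted p = 0.0353 and 0.0290), from 1.95 ± 0.205 CPM with clean air to 1.06 ± 0.309 and 1.07 ± 0.143 (SD, n = 3). Its call with complete smoke was lost without complete 2, control 2 or control 3. BEAS-2B cells gave -1.20 ± 0.56 and -1.11 ± 0.55 (0.106 and 0.116).

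Of the 5 members tied to MYC, p53 and growth control none passed with complete and 2 were lower with filtered smoke in A549 cells, and 3 were lower with each in BEAS-2B cells. ZBTB17, or MIZ-1, the partner through which MYC represses genes, did not pass in any of the 4 comparisons. It measured 11.8, 12 and 11.3 CPM in A549 cells with clean air, 12.9, 14.5 and 10.8 with complete and 14.1, 16.8 and 10.4 with filtered smoke, which overlapped (0.13 ± 0.19 and 0.24 ± 0.19). BEAS-2B cells held 26.7, 19.8 and 17.9, then 31.8, 30.5 and 17.6, then 36.7, 32.7 and 24.7 CPM (0.30 ± 0.27 and 0.53 ± 0.28; edgeR adjusted p = 0.383 and 0.132). With the library number as a block it was higher with filtered smoke (0.54, 0.00712), as it was without control 1 (0.78, 0.0408), and without control 1 and complete 3 together it was higher with either smoke (0.77 and 0.79, adjusted p = 0.0103 and 0.00644). With library size alone the sign turned, to -0.38 and -0.13.

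ZBTB7A, a repressor of fetal globin genes and of the ARF tumour suppressor, fell in 3 of the 4 comparisons. In A549 cells it measured 17.3, 19.2 and 18.4 CPM with clean air, 11.4, 8.82 and 17.8 with complete and 10.6, 9.48 and 11.1 with filtered smoke. The BEAS-2B values were 16.8, 17.7 and 20.3, then 5.62, 5.99 and 9.48, then 5.02, 5.32 and 6.04 CPM. Complete 3 of A549 alone overlapped the controls. The log2 fold changes were -0.52 ± 0.23, -0.81 ± 0.23, -1.35 ± 0.26 and -1.74 ± 0.26 (edgeR adjusted p = 0.103, 0.0188, 0.00559 and 0.00293). The first passed with the block (0.0175) and without complete 3 (0.00710), and the second was lost without filtered 1, filtered 2, control 2 or control 3 (0.0514 to 0.0718). ZBTB5, reported to repress CDKN1A, measured 27.8, 31.9 and 28.1 CPM in the BEAS-2B controls and 5.80, 9.95 and 9.19 with complete smoke (-1.79 ± 0.29, edgeR adjusted p = 0.00339). The groups were well apart, and it was also lower with filtered smoke in both lines. ZBTB2 was lower in BEAS-2B cells (-0.84 ± 0.22 and -0.80 ± 0.22, edgeR adjusted p = 0.0179 and 0.0184), and stood at -0.31 ± 0.17 and -0.39 ± 0.17 in A549 cells (0.167 and 0.0788). ZBTB49, which can activate CDKN1A, lay between -0.30 and 0.25 in all 4.

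Of the 6 members known from blood cells 1 was lower with complete and 3 with filtered smoke in A549 cells (4 tested), and 3 with each in BEAS-2B cells (5 tested). ZBTB7B (ENSG00000160685, chromosome 1, 155002630 to 155018522, plus strand) fell with little spread. From the clean-air values above it went in A549 cells to 30.7, 27.6 and 29.5 CPM with complete and 33.0, 34.3 and 28.3 with filtered smoke (-0.97 ± 0.14 and -0.85 ± 0.14, edgeR adjusted p = 0.00206 and 0.00214). BEAS-2B cells went to 7.26, 7.42 and 4.52 and to 6.41, 7.29 and 5.70 CPM (-1.34 ± 0.22 for both, 0.00357 and 0.00382). None of the groups overlapped its controls. ZBTB16 had no counts in the 6 exposed A549 libraries. BEAS-2B cells held 3.02, 5.82 and 6.34 CPM with clean air, 0.855, 0.927 and 2.32 with complete and 0.776, 0.674 and 0.946 with filtered smoke (-1.84 ± 0.44 and -2.65 ± 0.45, edgeR adjusted p = 0.0119 and 0.00423). The exposed values all lay under the lowest control. ZBTB1, needed for lymphoid development, measured 30.3, 57.2 and 57.2 CPM in the BEAS-2B controls and 11.6, 14.4 and 19.8 with complete smoke (-1.62 ± 0.39, edgeR adjusted p = 0.0124), with no overlap. It was also lower with filtered smoke in both lines. ZBTB46 did not pass with either smoke in either line.

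Among members linked to repression in development, which include ZBTB20, none of the other 4 passed with either smoke in A549 cells, though ZBTB18 did with filtered smoke when the library number was a block (-0.51, adjusted p = 0.0311). In BEAS-2B cells ZBTB14, a MYC repressor, was lower with both smokes (-1.19 ± 0.22 and -1.18 ± 0.21, edgeR adjusted p = 0.00461 and 0.00473), from 15.0 ± 0.761 to 6.47 ± 0.546 and 6.60 ± 1.34 CPM (SD, n = 3). ZBTB18, a repressor in cortical neurons, was lower with filtered smoke (-1.56 ± 0.48, 0.0259) and its relative ZBTB42 with complete smoke (-0.76 ± 0.27, 0.0476). ZBTB45 did not pass anywhere, at -0.33, -0.11, 0.10 and 0.40.

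Of the 5 members linked to telomeres and chromatin 2 were lower with complete smoke and 4 lower and 1 higher with filtered smoke in A549 cells, and 2 and 3 were lower in BEAS-2B cells. ZBTB40 (ENSG00000184677, chromosome 1, 22428838 to 22531157, plus strand) measured 59.5, 55.8 and 55 CPM in A549 cells with clean air, 27.4, 25.4 and 40.0 with complete and 24.4, 24.6 and 37.2 with filtered smoke. In BEAS-2B cells the values were 25.7, 42.4 and 47.7, then 11.1, 13.3 and 15.8, then 14.7, 15.1 and 15.7 CPM. No exposed library reached a control, and the 4 fold changes lay between -1.49 and -0.87 (edgeR adjusted p from 0.00358 to 0.0175). The ZBTB40 call with complete smoke in A549 cells was lost without complete 2, control 2 or control 3. ZBTB48, or TZAP, which trims long telomeres (ENSG00000204859, chromosome 1, 6580001 to 6589280, plus strand), rose in A549 cells with filtered smoke. It measured 10.3, 9.81 and 10.6 CPM with clean air, 10.9, 15.6 and 15.8 with complete and 15.3, 15.7 and 13.6 with filtered smoke. All exposed values were above the controls, by 0.47 ± 0.17 (edgeR adjusted p = 0.0566) and 0.54 ± 0.17 (0.0259) on the log2 scale. The second call was lost with library size alone (0.39, 0.0877), with no low-count filter (0.0517) and without filtered 1, filtered 2 or each control in turn (0.0590 to 0.0889). With the block it passed with complete smoke too (0.47, 0.0247). In BEAS-2B cells ZBTB48 measured 27.8, 15.9 and 14.3, then 28.7, 25.5 and 15.0, then 32.6, 29.7 and 22.8 CPM, which overlapped (0.24 ± 0.33 and 0.53 ± 0.33, edgeR adjusted p = 0.569 and 0.202). With filtered smoke it passed with the block (0.59, 0.0124).

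ZBTB10, a binder of telomeric repeat variants, measured 6.21, 16.7 and 17.3 CPM in the BEAS-2B controls and 2.21, 3.57 and 4.12 with filtered smoke (-2.00 ± 0.62, edgeR adjusted p = 0.0268). The low control 1 was still above the exposed libraries. The call was lost without filtered 1, filtered 2, control 2 or control 3 (0.0724 to 0.0858) and with no low-count filter (0.0903). ZBTB10 was also lower in A549 cells with both smokes (-0.77 ± 0.20 and -1.10 ± 0.21, edgeR adjusted p = 0.0199 and 0.00370). The first of these calls was lost without complete 2, control 2 or control 3. ZBTB24, mutated in an immunodeficiency with centromere instability, was lower in 3 comparisons, among them A549 cells with filtered smoke (-1.03 ± 0.20, edgeR adjusted p = 0.00415). Its exons overlap MICAL1 on the same strand, so its counts are uncertain. ZBTB11 was lower in A549 cells with filtered smoke (-0.75 ± 0.25, 0.0315).

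**Figure D4:**
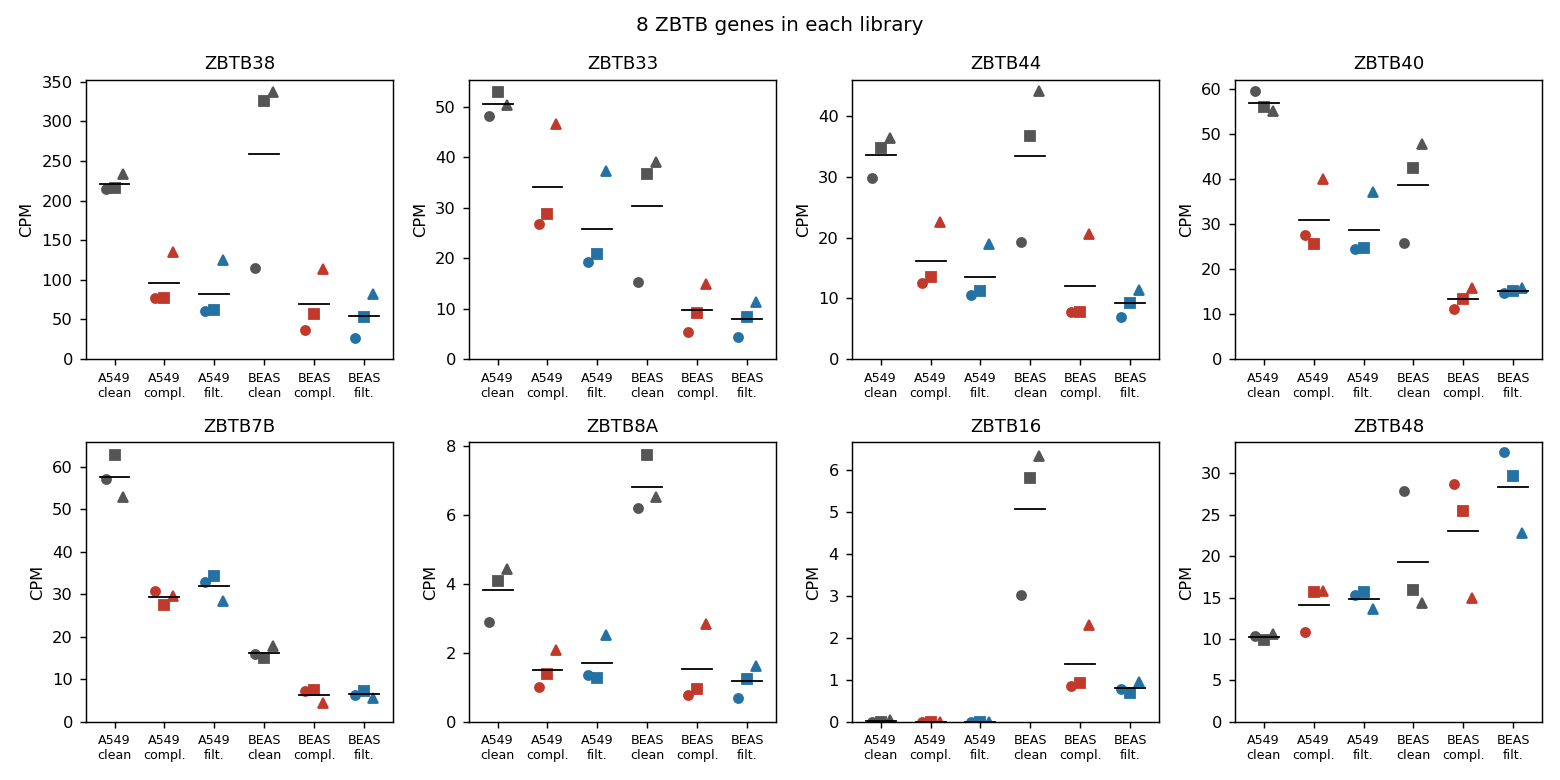
CPM of 8 ZBTB genes in each library (y axes start at 0), with clean air in grey, complete smoke in red and filtered smoke in blue. Circles, squares and triangles are libraries 1, 2 and 3 and lines are group means; ZBTB38, ZBTB44, ZBTB40, ZBTB7B and ZBTB8A fall in both lines, ZBTB16 is seen in BEAS-2B cells, and ZBTB48 is higher in exposed A549 cells.

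The remaining 17 members have no role assigned here. Among them ZBTB8A (ENSG00000160062, chromosome 1, 32539427 to 32605939, plus strand) was lower in all 4 comparisons. In A549 cells it measured 2.90, 4.09 and 4.44 CPM with clean air, 1.01, 1.37 and 2.09 with complete and 1.35, 1.27 and 2.51 with filtered smoke. The BEAS-2B values were 6.21, 7.74 and 6.51, then 0.763, 0.963 and 2.83, then 0.694, 1.25 and 1.61 CPM. No exposed library reached a control. The log2 fold changes were -1.33 ± 0.35, -1.14 ± 0.34, -2.13 ± 0.50 and -2.50 ± 0.51 (edgeR adjusted p = 0.0191, 0.0217, 0.0117 and 0.00671). In A549 cells the first was lost without complete 1, complete 2, control 2 or control 3 (0.0637 to 0.0773) and the second without filtered 1, filtered 2, control 2 or control 3 (0.0638 to 0.0879). ZBTB8A and its neighbour ZBTB8B share exonic bases with a further annotated gene on their strand, so both counts are uncertain. ZBTB8B had 45, 47 and 45 counts in the BEAS-2B controls, 2, 10 and 13 with complete smoke and 5, 6 and 10 with filtered smoke. It passed the filter on low counts through the controls alone, so this is a description with no test.

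ZBTB37 (ENSG00000185278, chromosome 1, 173868082 to 173903549, plus strand) fell most in A549 cells apart from ZBTB20. It measured 16.2, 17.5 and 18.7 CPM with clean air, 4.58, 4.83 and 10.6 with complete and 4.54, 3.21 and 7.98 with filtered smoke (-1.38 ± 0.37 and -1.73 ± 0.38, edgeR adjusted p = 0.0218 and 0.00654). The groups did not overlap. The first call was lost without complete 1, complete 2 or each control in turn (0.0549 to 0.0909). Filtered smoke lowered it in BEAS-2B cells (-1.57 ± 0.51, edgeR adjusted p = 0.0307), while it stood at -0.63 ± 0.50 with complete smoke (0.321), where complete 3 was at 8.93 CPM beside 2.84 and 2.92.

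ZBTB44 (ENSG00000196323, chromosome 11, 130226677 to 130314908, minus strand) measured 29.8, 34.7 and 36.5 CPM in A549 cells with clean air, 12.4, 13.5 and 22.5 with complete and 10.5, 11.2 and 18.9 with filtered smoke (-1.05 ± 0.28 and -1.31 ± 0.28, edgeR adjusted p = 0.0206 and 0.00611). The first call was lost without complete 1, complete 2, control 2 or control 3 (0.0637 to 0.0875). BEAS-2B cells held 19.3, 36.7 and 44.1, then 7.75, 7.81 and 20.6, then 6.94, 9.22 and 11.3 CPM (-1.41 ± 0.45 and -1.85 ± 0.46, edgeR adjusted p = 0.0330 and 0.0122). Complete 3 of BEAS-2B overlapped control 1. ZBTB41 measured 25.7, 29.8 and 35.7 CPM in the A549 controls and 8.16, 8.02 and 20.5 with filtered smoke (-1.30 ± 0.39, edgeR adjusted p = 0.0204), a call lost without filtered 1, filtered 2 or control 3 (0.0691 to 0.0787). BEAS-2B cells held 4.47, 15.0 and 15.1 against 1.18, 1.77 and 3.56 CPM (-2.37 ± 0.65, edgeR adjusted p = 0.0172), a call lost without filtered 1, filtered 2, control 2 or control 3 (0.0564 to 0.0624) or with no low-count filter (0.0601). ZBTB26 and ZBTB47 were each lower in 3 of the 4 comparisons, between -1.07 and -0.44. ZBTB34 and ZBTB43 were lower with both smokes in BEAS-2B cells, and ZBTB6 with filtered smoke. ZBTB3, ZBTB21 and ZBTB39 were tested in both lines and passed in none of the 4 without the block. With it all 3 were lower in A549 cells with filtered smoke (adjusted p = 0.0124, 0.0316 and 0.0134), and ZBTB21 and ZBTB39 were lower in BEAS-2B cells with filtered smoke (0.000300 and 0.000924). ZBTB9 and ZBTB12, tested in BEAS-2B cells, passed with neither smoke.

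Complete and filtered smoke did not differ for any member in either line by edgeR, and none passed with DESeq2. Among all genes 0% passed in both lines, and with the library number as a block no member and 0.00656% of all genes passed in A549 cells. At an unadjusted p under 0.05 there was 1 member in A549 cells and 0 in BEAS-2B cells, where 1.55% and 1.36% of all genes reached it. With the library number as a block there were 10 and 4 (6.29% and 5.81% of all genes), and without A549 filtered 3 there were 16 in A549 cells (17.3%). The fold change was lower with filtered than with complete smoke for 23 of 33 members in A549 cells and 22 of 37 in BEAS-2B cells, and for 49.5% and 53.2% of all genes. This direction rested on complete 3 of each line. Without that library it held for 11 of 33 members in A549 cells and 6 of 37 in BEAS-2B cells (46.6% and 49.6% of all genes). The median difference of the members, complete minus filtered, went from 0.22 to -0.04 and from 0.10 to -0.21. Without BEAS-2B filtered 1 it held for 17 of 36 members (57.5% of all genes) and the median of the members was -0.03.

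The response was compared between the lines by an interaction test. The fold change was lower in BEAS-2B than in A549 cells for 28 of 33 members with complete smoke and 27 of 33 with filtered smoke, where 50.4% and 51.8% of all genes tested in both lines were lower, but no member passed for either smoke (0 of 36 tested; edgeR, where 1.74% and 0.825% of all genes passed). At an unadjusted p under 0.05 there were 6 and 4 members (17.3% and 13.8% of all genes). DESeq2 called 1 member for each smoke at an adjusted p, with no share of all genes given beside it. The median difference of the members was -0.62 with complete and -0.43 with filtered smoke, against -0.03 for all genes with either. It moved with single libraries, for complete smoke to -0.97 without BEAS-2B complete 3 and to -0.40 without A549 complete 3, and for filtered smoke to -0.68 without A549 filtered 1 and to -0.24 without A549 filtered 3. With library size alone the medians were -1.16 and -0.95, and those of all genes -0.56 and -0.54. Without BEAS-2B control 1 and complete 3, 16 members passed for complete smoke, all lower in BEAS-2B cells (21.5% of all genes), and 1 for filtered smoke (5.16%). With the library number as a block 7 passed for filtered smoke, all lower in BEAS-2B cells (15.5% of all genes), and 11 for complete smoke (10 lower; 20% of all genes), where the numbers were not taken as pairs in BEAS-2B cells.

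Some members are neighbours. ZBTB25 and ZBTB1 on chromosome 14 run in opposite directions and overlap by 1502 bases at their starts. In A549 cells they stood at -0.53 ± 0.24 and -0.51 ± 0.24 with complete and -0.73 ± 0.24 and -0.81 ± 0.24 with filtered smoke. In BEAS-2B cells ZBTB25 stood at 0.29 ± 0.21 and 0.01 ± 0.21 while ZBTB1 was at -1.62 ± 0.39 and -1.64 ± 0.39, and the difference between the pair was not tested. ZBTB25 passed in A549 cells with filtered smoke alone (edgeR adjusted p = 0.0320), and ZBTB1 passed there (0.0207) and in BEAS-2B cells with both smokes (0.0124 and 0.0106). ZBTB25 measured 5.26, 6.89 and 7.04 CPM in the BEAS-2B controls and 8.09, 6.46 and 8.45 with complete smoke, which overlapped. ZBTB6 and ZBTB26 lie 2235 bases apart on chromosome 9 on the same strand, and ZBTB43 and ZBTB34 22454 bases apart. The fold changes of ZBTB43 and ZBTB34 in BEAS-2B cells were -1.58 and -1.50 with complete and -1.54 and -1.32 with filtered smoke.

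Longer members had lower fold changes. Across the tested members other than ZBTB20, Spearman's rho between exonic length and log2 fold change was -0.53, -0.70, -0.43 and -0.58 (A549 complete and filtered, then BEAS-2B complete and filtered). Across all tested protein-coding genes it was -0.53, -0.54, -0.46 and -0.49, over 12757 genes in A549 and 13010 in BEAS-2B cells. The points share libraries and are not replicates. The members' median exonic length was 5.52 kb, close to the 5.18 and 5.10 kb of all protein-coding genes.

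**Figure D5:**
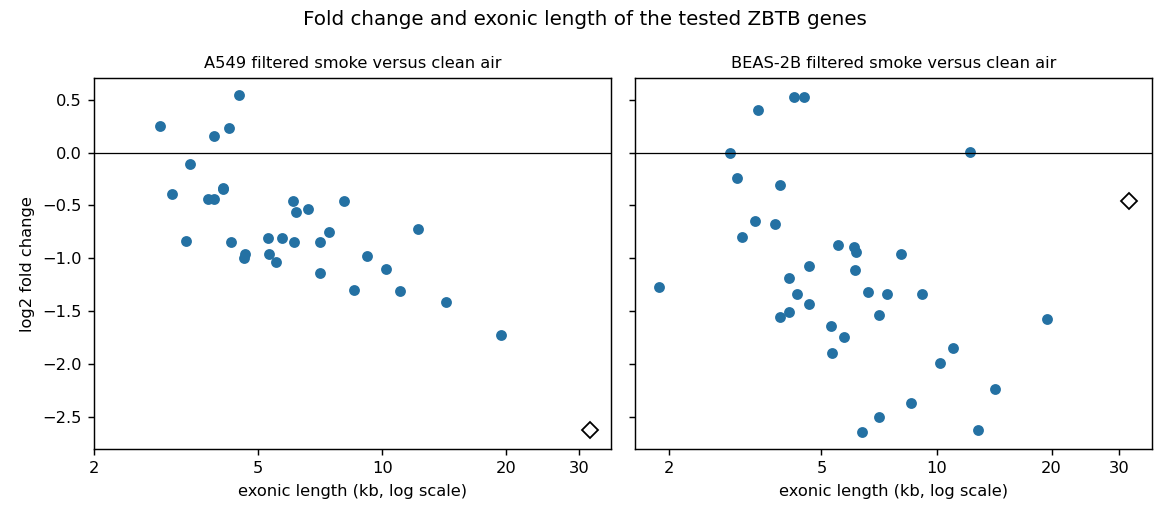
Log2 fold change with filtered smoke (y axis) against exonic length in kb on a log scale (x axis) for the tested ZBTB genes in A549 (left) and BEAS-2B cells (right); each point is a gene and the diamond is ZBTB20. In A549 cells the lowest tested member is ZBTB37, at -1.73.

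Relatives with the same domains but other names were a short list. Of 7 tested in each line (BCL6, PATZ1, HIC1 and others) 1 rose and 1 fell in A549 cells with either smoke and 2 fell in BEAS-2B cells, with list medians of 0.03, 0.01, -0.28 and -0.14. Of all genes 32.5%, 46.7%, 41% and 48.6% passed in these comparisons, with medians of 0.02, 0.01, -0.06 and -0.07. HIC2 fell in all 4 comparisons, in BEAS-2B cells from 5.65 ± 0.696 to 1.73 ± 0.755 and 1.52 ± 0.514 CPM (-1.67 ± 0.37 and -1.88 ± 0.37, edgeR adjusted p = 0.00954 and 0.00620). HIC1, a target of p53, stood at 0.310, 0.740 and 0.255 CPM in the A549 controls. It stood at 0.71, 1.96 and 4.80 CPM with complete and 0.798, 2.22 and 4.97 with filtered smoke. Complete 1 lay below control 2. The log2 fold changes were 2.47 ± 0.81 and 2.57 ± 0.81. The check on the low-count filter covered the ZBTB members alone. HIC1, the 1 relative counted as rising, was low in the controls and is therefore described without a test. ZNF131 fell in BEAS-2B cells from 52.8 ± 10.7 to 29.8 ± 6.75 and 31.4 ± 9.01 CPM (SD, n = 3). Whether these shares differ from those of the ZBTB members was not tested. Calls of genes in this list, and in those of partners and downstream genes below, are from the main fit alone. Whether they hold under other settings or without single libraries was not tested.

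Among 26 tested genes listed as corepressors and partners of BTB zinc-finger proteins, more fell than rose. The list is mixed, and not every gene on it is one through which these proteins act. In A549 cells 11 fell and 3 rose with complete smoke and 13 fell and 4 rose with filtered smoke, with list medians of -0.28 and -0.35. In BEAS-2B cells 5 fell and 2 rose, then 9 fell and 2 rose, with medians of -0.38 and -0.70. Of all genes 16.9% fell and 15.6% rose, then 23.5% and 23.1%, in A549 cells, and 19.5% fell and 21.5% rose, then 24.9% and 23.6%, in BEAS-2B cells. EP300, a histone acetyltransferase, fell in A549 cells from 93.3 ± 4.86 to 32.8 ± 13.1 and 25.7 ± 10.7 CPM (-1.50 ± 0.32 and -1.85 ± 0.32, edgeR adjusted p = 0.00989 and 0.00287). TBL1X, a core subunit of the NCOR complexes, fell from 60.0 ± 2.34 to 25.9 ± 0.476 and 25.7 ± 1.85 CPM, and RCOR1 fell as well. In BEAS-2B cells RCOR1, BCOR and TBL1X were among those that fell with both smokes, and EP300 and TBL1XR1 fell with filtered smoke. The members that rose, named after their values were seen, included HDAC3, the deacetylase of the NCOR complexes, and CDCA7, whose promoter ZBTB24 binds. CDCA7 rose in all 4, from 29.5 ± 4.06 to 45.7 ± 2.37 and 48.6 ± 0.648 CPM in A549 cells and from 24.2 ± 2.49 to 38.3 ± 3.89 and 34.1 ± 3.49 in BEAS-2B cells (SD, n = 3). HDAC3 rose in all 4 as well, by 0.74 to 0.91 on the log2 scale.

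Genes listed as downstream of family members were mixed. In A549 cells 1 of 8 tested fell with complete smoke, and 1 rose and 2 fell with filtered smoke. In BEAS-2B cells 4 of 10 rose with complete smoke, and 4 rose and 1 fell with filtered smoke. The list medians were 0.15 and 0.28 in A549 cells and 0.48 and 0.31 in BEAS-2B cells. Of all genes 15.6% and 23.1% rose in A549 cells and 21.5% and 23.6% in BEAS-2B cells. MTFP1, a mitochondrial fission gene that ZBTB48 activates, rose in BEAS-2B cells from 2.62 ± 1.5 to 9.02 ± 3.98 and 9.41 ± 4.04 CPM (1.76 ± 0.51 and 1.81 ± 0.51, edgeR adjusted p = 0.0237 and 0.0190). In A549 cells it rose with filtered smoke from 0.732 ± 0.257 to 1.94 ± 0.511 CPM (1.38 ± 0.39, edgeR adjusted p = 0.0173). CDKN1A, the p21 gene that MIZ-1 regulates, rose in BEAS-2B cells from 122 ± 29.2 to 199 ± 38.2 and 233 ± 7.06 CPM (0.71 ± 0.23 and 0.92 ± 0.23, 0.0367 and 0.0135). CDKN2A rose in BEAS-2B cells from 229 ± 141 to 791 ± 308 and 958 ± 344 CPM and had no counts in A549 cells. RB1 fell in A549 cells with both smokes, and CCND1 with filtered smoke.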

How the data were processed

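The authors deposited raw gene counts, with 3 count columns for different strand settings. The submitters' processing notes name STAR 2.7.10b and GRCh38. Column 4, a stranded count, was used because it exceeded the opposite strand 11.7 to 17.1 times over the 18 libraries, and summary lines that name no gene were left out. Positions and exonic lengths are from GENCODE release 29, and exonic length is the union of all exons. Groups came from the labels.

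After filterByExpr and TMM scaling, edgeR 4.0.16 (R 4.3.3) quasi-likelihood tests with robust dispersion ran on the 9 libraries of a line, and on all 18 for differences between lines (BEAS-2B minus A549), with Benjamini-Hochberg adjustment over all genes tested and a threshold of 0.05. Dispersion corresponded to a biological coefficient of variation of 0.209 (A549) and 0.299 (BEAS-2B). Standard errors come from the test statistic. CPM values use TMM factors over the 18 libraries. Counting intervals and floors cover counting error only. Alternatives were DESeq2 1.42.0 size factors and its Wald test, upper-quartile scaling, library size alone, no low-count filter, counts that ignore strand, the replicate number as a block, each library left out, and BEAS-2B control 1 and complete 3 left out together.

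Named genes are ZBTB20, the up to 5 highest and 5 lowest fold changes of passing members with a mean of at least 1 CPM per comparison with clean air, up to 3 each way for the other comparisons, the reference members ZBTB33, ZBTB17, ZBTB7A and ZBTB16, and up to 4 passing genes per list and line. Further members are named so that all are accounted for. A gene that the rule names in the list of corepressors is not reported here. Members, roles and lists were chosen with earlier results of these data known.

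Library numbers counted as pairing 2 groups if, in all 3 pairs, deviations from the group means correlated above 0.1 across genes. The correlations were 0.22 to 0.36 for complete and 0.25 to 0.37 for filtered smoke against clean air in A549 cells and 0.16 to 0.58 for filtered smoke in BEAS-2B cells. For complete smoke in BEAS-2B cells pair 2 stood at -0.13, so those numbers were not taken as pairs.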

Additional observations from a re-analysis of the deposited data

How the results depend on the processing

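None of the 29 calls of named members, leaving out those of members that passed the low-count filter through 1 group or line alone, reversed under any alternative, 29 passed with the DESeq2 Wald test, 27 passed under all 3 other scalings, and 15 were lost without at least 1 library. All 27 such calls that the replicate block could be fitted to passed with it. The number of members called ranged, over libraries left out 1 at a time, from 1 to 18 (A549, complete smoke), 8 to 27 (A549, filtered), 9 to 26 (BEAS-2B, complete), 11 to 27 (BEAS-2B, filtered) and 7 to 14 (lines with clean air), and stayed at 0 for complete against filtered smoke in both lines and for both line differences in response. The share of all genes called moved with single libraries as well. It is given above for the lowest count of each range and for the 18, while the other highest counts have no share beside them. With the block the count was 19 for A549 cells with complete smoke (54.6% of all genes), 11 for the line difference with complete smoke (20%) and 7 for that with filtered smoke (15.5%). It rested on numbers not taken as pairs for complete smoke in BEAS-2B cells (28 with the block, 63.1% of all genes). No paired analysis was possible for the lines with clean air because a number within a line holds nothing on a difference between lines. Without BEAS-2B control 1 and complete 3 the count was 29 for complete smoke in that line (63.5% of all genes), and 16 and 1 for the line differences with complete and filtered smoke (21.5% and 5.16%). Those 2 line differences had 4 and 2 members with library size alone and 1 each with DESeq2, and the first had 3 with no low-count filter. Beside these counts at an adjusted p no share of all genes is given, so they cannot be read as more or fewer than it. At an unadjusted p under 0.05 the line differences had 15 and 10 members with library size alone (27.9% and 24.9% of all genes) and 6 and 6 with DESeq2 (18.9% and 15.4%). With no low-count filter the first had 13 members at that level (11.5% of all genes). The cause was not tested. ZBTB17 reversed with library size alone in BEAS-2B cells (-0.38 and -0.13). ZBTB20 reversed without complete 3. Over libraries left out it ranged from -0.21 to 0.72 for complete against filtered smoke in A549 cells and from -0.29 to 1.35 for complete smoke in BEAS-2B cells, where it was -0.48 without control 1 and complete 3. At 8 to 23 counts a library outside complete 3, depth limits what can be read from ZBTB20 in BEAS-2B cells.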
